A study of Mus musculus with 6 samples.

Results

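The NF-kB loci examined here are 10 genes: the factors Nfkb1, Nfkb2, Rela, Relb and Rel, the inhibitors Nfkbia and Tnfaip3, and the targets Ccl3, Ccl4 and Birc3. Their members are the ATAC-seq peaks whose midpoint lies within 50 kb of an end of one of these genes, with no other RefSeq protein-coding gene end nearer. That gave 45 of the 42632 peaks, 24 at factors, 14 at inhibitors and 7 at targets. ATAC-seq measures open chromatin, since a transposase inserts sequencing adapters where DNA is accessible.

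The cells were long-term haematopoietic stem cells (LT-HSCs) of C57BL/6 mice 10 to 16 weeks old, sorted from bone marrow as lineage-negative, Sca1- and cKit-positive cells without CD34 or Flt3. Confined cells (3 libraries) were cultured for 13 h, given 0.5 h to adhere to glass coated with fibronectin, held for 2 h in a gap 5 µm high, and lifted off with a dissociation reagent. Unconfined cells (3 libraries) stayed in culture for 16 h. The comparison asks how squeezing a stem cell changes its open chromatin. All 3 confined libraries, and none of the unconfined ones, were also adhered and lifted off, so that these steps and the squeezing cannot be told apart. The labels do not say whether each library came from separate animals, so that p-values measure only the spread between these libraries, which may be technical.

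NF-kB factors act as dimers. Nfkb1 and Nfkb2 encode precursors of DNA-binding subunits, and Rela, Relb and Rel encode subunits that activate transcription. The inhibitor IκBα, encoded by Nfkbia, holds dimers in the cytoplasm until an upstream kinase marks it for degradation, and the ubiquitin-editing enzyme encoded by Tnfaip3 damps that signal. Nfkbia, Tnfaip3, Nfkb2 and Rel are themselves known targets of the pathway, as are the inflammatory chemokines Ccl3 and Ccl4 and Birc3, a ubiquitin ligase of the inhibitor-of-apoptosis family. In mice, both loss and excess of NF-kB activity are known to impair blood stem cells.

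Several of these peaks cover promoters with letters that match the DNA motif of NF-kB. Promoter windows of 300 bases (250 before to 50 after a transcription start, RefSeq, GRCm38.p6, the assembly called mm10) were listed for 7 of the 10 members, not for Nfkb1, Relb and Ccl4. The windows chosen are 1 for each gene with a match to the kappaB consensus, and the Ccl3 window, which has none and lies at a peak described below. Capitals mark the matches, on either strand. The Nfkb2 window chr19:46304487-46304786 (plus strand) and the Rel window chr11:23770920-23771219 (minus strand) lie wholly inside a peak, as do the Tnfaip3 window chr10:19015361-19015660 and the Ccl3 window chr11:83649329-83649628 (both minus strand). The Nfkbia window chr12:55492598-55492897 (minus strand) shares 9 bases with its peak.
Nfkb2: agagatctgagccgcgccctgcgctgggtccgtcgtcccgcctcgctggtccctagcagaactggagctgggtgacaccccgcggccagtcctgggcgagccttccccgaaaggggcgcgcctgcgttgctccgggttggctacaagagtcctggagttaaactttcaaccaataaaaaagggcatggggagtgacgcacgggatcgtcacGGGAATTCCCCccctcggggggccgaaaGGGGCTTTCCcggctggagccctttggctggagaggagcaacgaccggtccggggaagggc
Rel: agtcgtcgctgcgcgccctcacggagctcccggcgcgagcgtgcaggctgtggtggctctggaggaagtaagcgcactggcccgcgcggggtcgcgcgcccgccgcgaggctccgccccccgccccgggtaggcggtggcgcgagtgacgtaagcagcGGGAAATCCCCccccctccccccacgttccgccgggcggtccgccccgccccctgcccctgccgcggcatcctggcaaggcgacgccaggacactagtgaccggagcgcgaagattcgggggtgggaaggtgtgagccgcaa
Tnfaip3: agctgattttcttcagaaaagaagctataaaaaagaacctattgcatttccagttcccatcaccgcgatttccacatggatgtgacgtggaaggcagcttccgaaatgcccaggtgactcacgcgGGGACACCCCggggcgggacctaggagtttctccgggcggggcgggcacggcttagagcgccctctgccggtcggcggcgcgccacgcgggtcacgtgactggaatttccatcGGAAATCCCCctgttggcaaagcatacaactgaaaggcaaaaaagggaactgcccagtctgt
Nfkbia: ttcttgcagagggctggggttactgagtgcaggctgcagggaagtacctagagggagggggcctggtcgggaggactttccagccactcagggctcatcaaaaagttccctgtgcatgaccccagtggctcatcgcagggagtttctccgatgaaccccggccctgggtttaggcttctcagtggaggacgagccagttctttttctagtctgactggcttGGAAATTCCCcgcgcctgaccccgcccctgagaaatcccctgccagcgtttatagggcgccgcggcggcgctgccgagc
Ccl3: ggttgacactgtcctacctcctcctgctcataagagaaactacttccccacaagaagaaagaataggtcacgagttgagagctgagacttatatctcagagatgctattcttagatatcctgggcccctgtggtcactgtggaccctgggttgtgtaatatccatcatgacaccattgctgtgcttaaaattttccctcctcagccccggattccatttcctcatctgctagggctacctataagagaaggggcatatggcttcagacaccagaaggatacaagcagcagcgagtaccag

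The consensus was matched in 6 of the 10 listed windows, from 4 of the 7 genes, against 4.81% of 21263 windows of protein-coding genes. Windows of 1 gene are not independent. The Nfkb2 windows chr19:46305445-46305744 and chr19:46305680-46305979 overlap, and the same GGGACTTTCC is matched in both. The Nfkb2 window above holds GGGAATTCCC and the overlapping GGAATTCCCC from 39 and 38 bases before the start and GGGGCTTTCC from 11 bases before it. The Rel window holds GGGAAATCCC and GGAAATCCCC, which overlap, and the Nfkbia window holds GGAAATTCCC from 29 bases before the start. The windows of Ccl3, Rela and Birc3 held no match. The AP-1 motif TGANTCA was found in the Tnfaip3 window and in a further Nfkb2 window, and in 6.99% of all windows. These matches are letters in a window and not measured binding.

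Libraries differed in depth and in how much they resembled each other. Counts in peaks numbered 340922, 221390 and 128257 in confined libraries 1 to 3 and 304898, 1229478 and 983863 in unconfined libraries 1 to 3. Across all peaks, log2(CPM + 1) of confined libraries 2 and 3 had Pearson r between -0.0270 and 0.05 with that of the unconfined libraries. For confined library 1 the values were 0.418 to 0.524, and among unconfined libraries 0.676 to 0.824. Peaks are not independent replicates. Calls below are therefore also given for confined library 1 alone against the 3 unconfined libraries. Of 10 LT-HSC marker genes, 9 had a linked peak (not Ly6a). Their summed level was 789 to 873 CPM in confined and 613 to 728 CPM in unconfined libraries. Of 5 T and NK cell markers 2 had one (Cd3e, Cd3g and Ncr1 had none), at 31.6 to 85.8 CPM in confined and 21.3 to 48.0 CPM in unconfined libraries. Of 6 myeloid markers 5 had one (Elane had none), at 273 to 343 CPM in confined and 225 to 279 CPM in unconfined libraries. For B cell (3 of 4 with a peak, not Ms4a1), erythroid (4 of 4), megakaryocyte (3 of 3) and stromal or endothelial (4 of 4) markers the sums were 101 to 122, 113 to 148, 149 to 258 and 361 to 510 CPM in confined libraries, and 69.1 to 78.7, 108 to 141, 260 to 298 and 272 to 318 CPM in unconfined ones. Cd34 and Flt3, against which the cells were sorted, summed to 296 to 357 CPM in confined and 219 to 295 CPM in unconfined libraries. Few marker peaks passed the count filter: 5 of the LT-HSC list, 2 myeloid, 2 erythroid, 3 megakaryocyte and 1 stromal or endothelial. The Cd34 and Flt3 pair had 1, and the B and the T and NK lists had 0. None of those tested passed in edgeR, where 5.79% of all tested peaks were higher and 2.42% lower. On linked counts 1 of 4 tested myeloid markers, Cd14 (log2 fold change 1.94, edgeR adjusted p = 0.00325), and 1 of 3 stromal or endothelial ones, Cdh5 (1.17, 0.00285), were higher in confined cells. Neither passed with confined library 1 alone (edgeR adjusted p = 0.114 and 0.206). The part of other cells in the results was not tested.

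Summed over all linked peaks, the members did not move as one group. Nfkb1 rose, Relb, Rel and Ccl3 fell, and the other 6 genes did not pass. Here the counts of all peaks linked to a gene were added, for every protein-coding gene, and tested in edgeR (quasi-likelihood, two-sided, Benjamini-Hochberg over 10028 tested genes, threshold 0.05). All 10 members were tested. The gene filter asked for about 36.6 CPM, as a rate of all linked counts, in 3 or more libraries. A gene high in 1 group alone can meet it, and Rel and Birc3 met it in unconfined libraries only. Of all tested genes, 9.59% were called higher and 11.1% lower, so that 1 higher and 3 lower members are to be read against a background in which such calls are common. The members' median log2 fold change was -0.26, against 0.021 for all tested genes. With no filter or with total counts as the only scaling, 1 member was higher and 3 lower, where 5.01% and 8.18% of all genes were higher and 8.52% and 11.6% lower. When confined library 1 alone stood for confined cells, Ccl3 was called lower and no member higher.

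**Figure D1:**
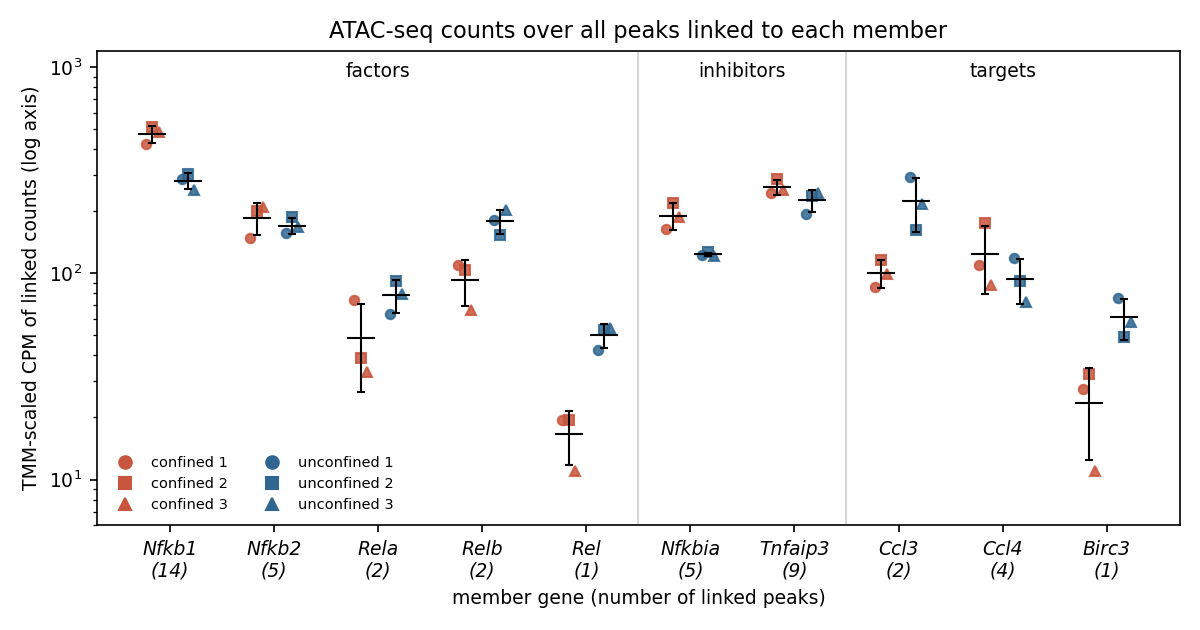
Level of each member in each library, as TMM-scaled CPM summed over its linked peaks (log axis); points are libraries, bars the mean ± SD of 3. Confined libraries lie above all unconfined ones at Nfkb1, Nfkbia and, only narrowly, Tnfaip3, and below all of them at Relb, Rel, Ccl3 and Birc3.

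Among the factors, Nfkb1 had 109, 79 and 44 linked counts in confined libraries 1 to 3 and 68, 289 and 196 in unconfined libraries 1 to 3, over 14 peaks. All 3 confined libraries lay above all 3 unconfined ones once scaled. TMM-scaled CPM is the count as a rate of the library's counts in tested genes, or in tested peaks for single peaks, after edgeR's scaling. At Nfkb1 it averaged 474 ± 44.1 in confined and 281 ± 24.6 in unconfined cells (SD, n = 3 each). The log2 fold change was 0.74 (SE 0.19, edgeR adjusted p = 0.00784). The call was lost with confined library 1 alone (0.59, edgeR adjusted p = 0.111), without confined library 2 (0.67, 0.0581), without unconfined library 3 (0.67, 0.0783) and with links within 20 kb only (0.58, 0.0828).

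Relb and Rel fell. Relb, the activating subunit of the non-canonical pathway, had 28, 16 and 6 linked counts in confined libraries and 43, 147 and 156 in unconfined ones. Its scaled CPM averaged 93.1 ± 23.5 in confined and 179 ± 24.4 in unconfined cells (SD, n = 3 each; log2 fold change -0.86, SE 0.27, adjusted p = 0.0278 in edgeR). Confined libraries lay below unconfined ones without overlap. Leaving out confined library 2 or 3 or unconfined library 1 or 3 ended the call (edgeR adjusted p = 0.0855, 0.0635, 0.0666 and 0.159), as did confined library 1 alone (-0.71, 0.220), DESeq2 (0.0835) and links within 20 kb (0.0565). The direction was the same in each of these.

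Rel, which encodes c-Rel, an activating subunit abundant in blood cells, has a single linked peak, centred 260 bp before its listed start. The peak lies at chr11:23770880-23771579. Its counts were 5, 3 and 1 in confined libraries and 10, 51 and 42 in unconfined ones. As a gene it averaged 16.7 ± 4.89 in confined and 50.04 ± 6.71 scaled CPM in unconfined cells (SD, n = 3 each; log2 fold change -1.51, SE 0.48, adjusted p = 0.0267 in edgeR), with no overlap. With the experimental batch as replicate block the call was lost (-1.46, edgeR adjusted p = 0.0553). It was lost too without confined library 1, 2 or 3 or unconfined library 3 (edgeR adjusted p = 0.0535, 0.0865, 0.0618 and 0.0893), with confined library 1 alone (-1.41, 0.218) and with DESeq2 (0.118).

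Rela and Nfkb2 did not pass. Rela, the main activating subunit, had 19, 6 and 3 linked counts in confined and 15, 88 and 61 in unconfined libraries, or 48.7 ± 22.3 scaled CPM in confined and 78.2 ± 14.3 in unconfined cells (SD, n = 3 each; log2 fold change -0.57, SE 0.35, adjusted p = 0.243 in edgeR). Confined library 1 lay among the unconfined libraries. Without confined library 1 the Rela value was -1.15 (edgeR adjusted p = 0.0659), and with confined library 1 alone -0.15. Nfkb2 had 38, 31 and 19 linked counts in confined and 37, 179 and 129 in unconfined libraries, with a log2 fold change of 0.055 (SE 0.24, edgeR adjusted p = 0.888), and its groups overlapped.

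Neither inhibitor passed. Nfkbia had 42, 34 and 17 linked counts in confined and 29, 121 and 94 in unconfined libraries. Scaled, this was 191 ± 28.3 CPM in confined and 124 ± 2.47 CPM in unconfined cells (SD, n = 3 each; log2 fold change 0.60, SE 0.24, adjusted p = 0.0763 in edgeR), and the groups did not overlap. Without confined library 1 the Nfkbia value was 0.74 and passed (edgeR adjusted p = 0.0434). Tnfaip3 had 63, 44 and 23 linked counts in confined and 46, 228 and 188 in unconfined libraries, with a log2 fold change of 0.18 (SE 0.21, edgeR adjusted p = 0.553). After scaling the Tnfaip3 groups were only narrowly apart, at 246 CPM in confined library 1 and 244 CPM in unconfined library 3.

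Of the targets, Ccl3 fell. It had 22, 18 and 9 linked counts in confined and 69, 155 and 168 in unconfined libraries. The scaled CPM were 101 ± 15.4 in confined and 224 ± 65.2 in unconfined cells (SD, n = 3 each; log2 fold change -1.11, SE 0.28, adjusted p = 0.00859 in edgeR), without overlap. Ccl3 was called lower with confined library 1 alone (-1.30, edgeR adjusted p = 0.0149) and with any single library left out. Over peaks within 1 kb of a gene end only, the direction turned (1.57, edgeR adjusted p = 0.0238). That fit keeps 1 of the 2 Ccl3 peaks and scales libraries anew.

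Ccl4 and Birc3 did not pass. Ccl4 had 28, 27 and 8 linked counts in confined and 28, 88 and 56 in unconfined libraries, with overlapping groups (log2 fold change 0.49, SE 0.30, adjusted p = 0.235 in edgeR). Without confined library 2 the value was 0.20 (edgeR adjusted p = 0.747), and without unconfined library 3 it was 0.31. Over its peaks within 1 kb of a gene end it passed (1.41, edgeR adjusted p = 0.0130). On such counts 2 members, Ccl3 and Ccl4, were higher and none lower, against 6.42% and 2.52% of 5034 tested genes. Birc3 has 1 linked peak, with 7, 5 and 1 counts in confined and 18, 47 and 45 in unconfined libraries. All confined libraries lay below the unconfined ones there (log2 fold change -1.16, SE 0.44, adjusted p = 0.0596 in edgeR). In the fit over peaks within 1 kb of a gene end, which scales libraries anew, the same Birc3 counts gave -0.49.

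In all, 3 members lay higher (Tnfaip3 only narrowly) and 4 lower in confined libraries without overlap between the groups. Over all tested genes 18.9% and 21.8% did so. Rel and Birc3, among the lower members, passed the gene filter through unconfined libraries only.

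Genes with strong peaks and genes with weak peaks differed in direction across the whole table. Tested genes were cut into 5 equal classes by CPM per linked peak, averaged over all 6 libraries. The median log2 fold change was 0.53 in the lowest class, 0.39, 0.09 and -0.32 in the next ones, and -0.85 in the highest, where 42.9% of genes were called lower. Relb, at 51.7 CPM per linked peak, and Ccl3, at 61.6, are in that highest class. Nfkb1, at 19.96 CPM per peak, is in the second class, of which 18.8% were called higher. Rel, at 25.5, is in the third, where the median was 0.09 and 2.24% of genes were called lower. Its 1 linked peak lies at its start, and it met the gene filter in unconfined libraries only. Among all linked peaks within 1 kb of an end or start, 73.1% had a negative value in the fit over peaks with no filter. The part of peak strength in the members' calls was not tested.

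Within most loci, a smaller share of counts lay at gene ends and starts in confined cells, and a larger share in the peaks around them. Ccl3 went the other way. This share does not depend on scaling between libraries. It was taken for the 7 members that have both kinds of peak. In 5 of them it was lower in every confined library than in any unconfined one, and at Ccl3 it was higher. Over 6194 genes with both kinds, 34.8% showed the lower pattern and 3.29% the higher, with a median difference of -11.8 percentage points.

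**Figure D2:**
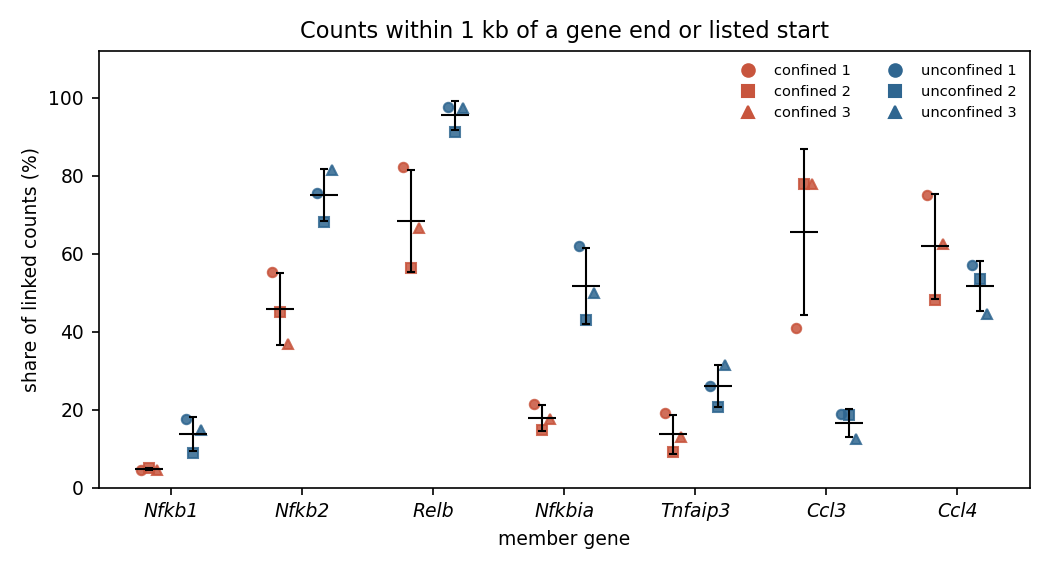
Share of each member's linked counts in peaks within 1 kb of a gene end or listed start, in percent; points are libraries, bars the mean ± SD of 3. Confined libraries lie below unconfined ones at Nfkb1, Nfkb2, Relb, Nfkbia and Tnfaip3, above them at Ccl3, and overlap at Ccl4.

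At Nfkbia the difference between group means was largest among the 5 lower members: the peak at its start held 21.4%, 14.7% and 17.6% of linked counts in confined libraries 1 to 3 and 62.1%, 43.0% and 50% in unconfined libraries 1 to 3. The 95% exact Clopper-Pearson interval was 10.3 to 36.8% in confined library 1 and 34.0 to 52.3% in unconfined library 2, which cover counting error only. The remaining counts lay in 4 peaks 6622 to 23864 bp from the gene. The Nfkb2 starts held 55.3%, 45.2% and 36.8% in confined and 75.7%, 68.2% and 81.4% in unconfined libraries. At Relb the share was 68.4% ± 13.0 in confined and 95.4% ± 3.70 in unconfined cells (SD, n = 3 each). Tnfaip3 had 13.7% ± 5.01 in confined and 26.0% ± 5.38 in unconfined cells, and Nfkb1 had 4.73% ± 0.288 in confined and 13.8% ± 4.41 in unconfined cells. These 5 were lower in confined library 1 as well, which lay below each unconfined library.

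As classes, the members lay close to all linked peaks. Their 13 peaks within 1 kb of an end or start held 0.0338% ± 0.00525 of all counts in confined and 0.0574% ± 0.00444 in unconfined libraries, a ratio of 0.588. For all 12554 linked peaks of this class the ratio was 0.648. The 32 farther member peaks held 0.0752% ± 0.00833 in confined and 0.0585% ± 0.00261 in unconfined libraries, a ratio of 1.29, against 1.27 for all 22133 farther linked peaks. In bulk samples, fewer cells with an open site and less opening per cell cannot be told apart.

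**Figure D3:**
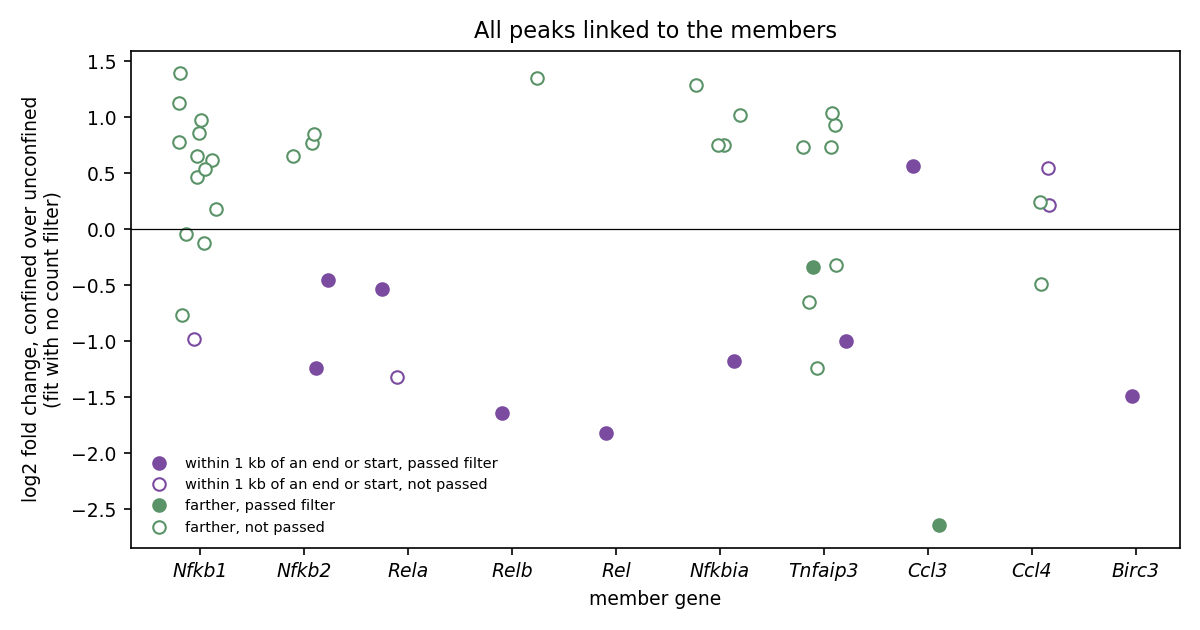
Log2 fold change (confined over unconfined) of each of the 45 member peaks from the edgeR fit with no count filter, by member; purple marks peaks within 1 kb of an end or start, green those farther, and filled points passed the count filter. Of the 13 purple points 10 lie below 0, against 73.1% of all linked peaks of that class, and of the 32 green points 23 lie above 0, against 66.9%.

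Peak by peak, 11 of the 45 members passed the count filter, and 2 of these, both at Ccl3, passed the test in opposite directions. The filter asked for about 31.0 CPM in 3 or more libraries, which a peak high in 1 group alone can meet. This CPM is a rate of all counts in peaks and not the scaled CPM. The Rel, Nfkbia and Birc3 peaks met it in the 3 unconfined libraries and in 0 of the confined ones. Over all 9084 tested peaks, 5.79% were called higher and 2.42% lower. When libraries were scaled by total counts, the median over all tested peaks was -0.68 on the log2 scale, against -0.020 with TMM, and that over the 11 members -0.95, against -0.28. With that scaling no member was higher, and the Ccl3 downstream peak and the peaks at Rel, Relb and Birc3 were lower (edgeR adjusted p = 0.0141, 0.0375 and 0.0339 for the last 3), where 3.83% of all tested peaks were higher and 25.2% lower. With no filter 3 members were lower (the Ccl3 downstream, Rel and Birc3 peaks) and none higher, against 4.27% and 1.47% of all 42632 peaks. With confined library 1 alone, none of the 11 passed in edgeR (1 at an unadjusted p under 0.05). With TMM 4 of the 11 were lower without overlap (Relb, Rel, Nfkbia and the downstream Ccl3 peak) and 1 higher (a distal Tnfaip3 peak), against 18.3% and 14.1% of all tested peaks.

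The member peak with the highest mean in unconfined cells lay beyond Ccl3, at chr11:83639924-83640623, in no annotated gene. It is centred 9104 bp downstream of the listed Ccl3 start and 7569 bp past the other end of the gene. It held 13, 4 and 2 counts in confined libraries 1 to 3 and 56, 126 and 147 in unconfined libraries 1 to 3. Every confined value was lower than every unconfined one after scaling. Its percentile rank among all peaks, ties at mid rank, was 88.0, 37.1 and 36.5 in confined and 99.8, 99.3 and 99.5 in unconfined libraries. It fell to 81.8 ± 23.7 scaled CPM in confined cells, against 305 ± 68.7 in unconfined cells (SD, n = 3 each; log2 fold change -1.67, SE 0.41, adjusted p = 0.00734 in edgeR). The call was lost with confined library 1 alone (-1.42, edgeR adjusted p = 0.0782) and without confined library 2 (-1.57, 0.0849).

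The peak at the Ccl3 start rose. This peak, at chr11:83649050-83649749, covers the Ccl3 promoter window printed above. It held 9, 14 and 7 counts in confined and 13, 29 and 21 in unconfined libraries, or 185 ± 97.3 scaled CPM in confined and 61.8 ± 23.0 in unconfined cells (SD, n = 3 each; log2 fold change 1.46, SE 0.44, adjusted p = 0.0289 in edgeR). Confined libraries 2 and 3 stood above all unconfined ones, and confined library 1 lay among them. With confined library 1 alone the value was 0.42 (edgeR adjusted p = 0.782), and without that library it was 2.19. The call was also lost without confined library 2 (0.99, edgeR adjusted p = 0.336) or 3 (1.32, 0.0726), without unconfined library 2 (1.48, 0.0623) or 3 (1.25, 0.123), with total counts (0.78, 0.119), with no filter (0.57, 0.441) and with DESeq2 (1.58, 0.0719).

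The ratio of these 2 Ccl3 peaks, chosen after their values were seen, needs no scaling. Downstream over start counts gave 1.44, 0.286 and 0.286 in confined libraries and 4.31, 4.34 and 7 in unconfined libraries, with no overlap. Ccl4 has 4 linked peaks, and the RefSeq model of Ccl4 overlaps Ccl3, so that 1 of them, 127 bp from the Ccl4 model's end, lies inside Ccl3. None of the 4 passed the filter. The peak 909 bp from the other end of Ccl4 held 19, 6 and 3 counts in confined and 12, 29 and 16 in unconfined libraries. With TMM scaling its groups did not overlap, confined being higher. Its percentile ranks among all peaks did overlap, at 97.4, 65.4 and 55.9 in confined and 84.7, 68.2 and 53.9 in unconfined libraries.

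**Figure D4:**
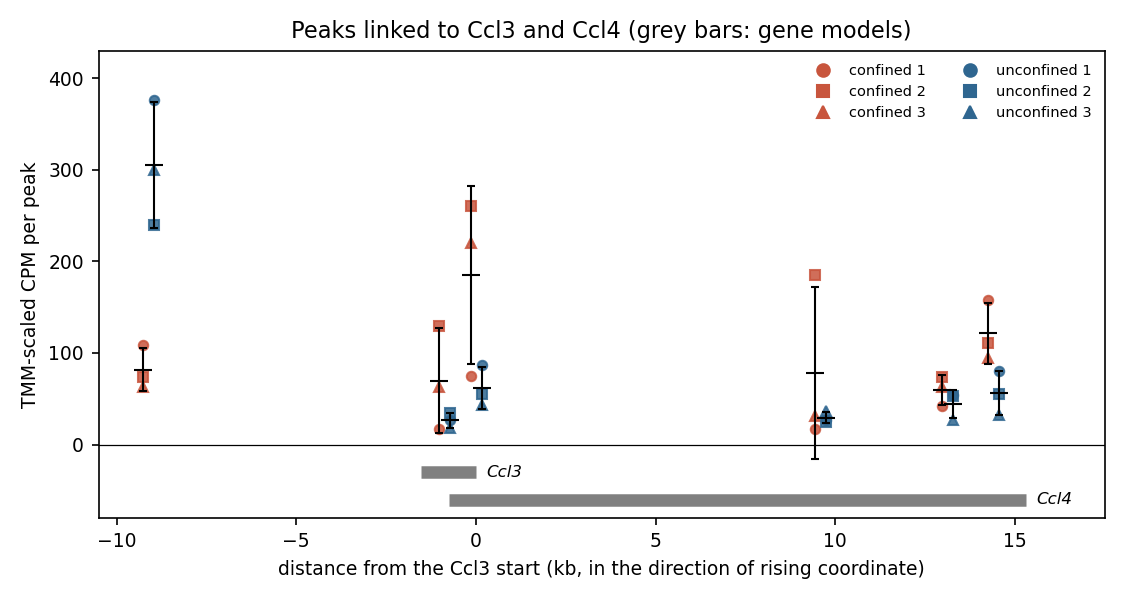
TMM-scaled CPM of the 6 peaks linked to Ccl3 and Ccl4, by distance in kb from the Ccl3 start; points are libraries, bars the mean ± SD of 3, and grey bars the gene models. The leftmost peak is lower in all 3 confined libraries, and the peak at the Ccl3 start is higher in confined libraries 2 and 3 only.

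None of the 5 tested factor peaks passed in edgeR or DESeq2 (none at an unadjusted p under 0.05 in edgeR). The Relb peak, 467 bp inside an end of the gene at chr7:19628621-19629320, held 23, 9 and 4 counts in confined and 42, 134 and 152 in unconfined libraries. Its percentile rank was 99.0, 90.4 and 72.0 in confined and 99.3, 99.4 and 99.6 in unconfined libraries. It averaged 162 ± 33.3 scaled CPM in confined and 282 ± 27.9 in unconfined cells (SD, n = 3 each), without overlap (log2 fold change -0.70, SE 0.35, adjusted p = 0.203 in edgeR).

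The Rel peak described above gave a log2 fold change of -0.99 (SE 0.50, edgeR adjusted p = 0.207) in the fit over peaks, and -1.82 (edgeR adjusted p = 0.0243) with no filter. The same counts gave -1.51 among gene-linked sums, where each library has another scaling factor. With confined library 1 alone the peak value was -1.07. Its groups did not overlap.

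At Nfkb2 the gene model begins 3621 bp before the centre of the first of its peaks, and both tested peaks lie inside it at listed starts. The peak at chr19:46304266-46304965, centred 122 bp before one start, which holds the Nfkb2 window printed above, had 14, 8 and 2 counts in confined and 21, 82 and 71 in unconfined libraries. That is 109 ± 43.3 scaled CPM in confined and 147 ± 7.55 in unconfined cells (SD, n = 3 each, log2 fold change -0.35, SE 0.34, adjusted p = 0.559 in edgeR). The peak at chr19:46305324-46306023, 22 bp before another start, had 7, 6 and 5 counts in confined and 7, 40 and 34 in unconfined libraries (0.40, SE 0.46, edgeR adjusted p = 0.633). Both overlapped between groups. The other 3 Nfkb2-linked peaks lie inside the neighbouring gene Psd.

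At Rela, the peak over the start, centred 98 bp before it, had 5, 3 and 2 counts in confined and 6, 47 and 30 in unconfined libraries and missed the filter. The tested Rela peak, at chr19:5648544-5649243 and 759 bp past the other end, had 14, 3 and 1 counts in confined and 9, 41 and 31 in unconfined libraries. Its scaled CPM were 68.0 ± 43.9 in confined and 67.2 ± 9.32 in unconfined cells (SD, n = 3 each; log2 fold change 0.31, SE 0.45, adjusted p = 0.722 in edgeR), and confined library 1 lay above every other library. No Nfkb1 peak passed the filter. The Nfkb1 peak 619 bp from a gene end held 5, 4 and 2 counts in confined and 12, 26 and 29 in unconfined libraries. A further peak inside Nfkb1 lies more than 50 kb from its ends and is not among the members.

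None of the 3 tested inhibitor peaks passed in edgeR or DESeq2 (none at an unadjusted p under 0.05 in edgeR). The Nfkbia peak at chr12:55491907-55492606, centred 390 bp after the start, held 9, 5 and 3 counts in confined and 18, 52 and 47 in unconfined libraries, or 87.4 ± 10.7 scaled CPM in confined and 105 ± 13.7 in unconfined cells (SD, n = 3 each; log2 fold change -0.28, SE 0.39, adjusted p = 0.692 in edgeR). The Tnfaip3 start peak at chr10:19015001-19015700, which covers the window printed above, held 12, 4 and 3 counts in confined and 12, 47 and 59 in unconfined libraries (log2 fold change -0.13, SE 0.38, adjusted p = 0.876 in edgeR). A Tnfaip3 peak at chr10:19062195-19062894, 47134 bp before the start, held 11, 7 and 5 counts in confined and 11, 38 and 42 in unconfined libraries (0.53, SE 0.38, edgeR adjusted p = 0.404). Confined libraries lay above unconfined ones at the distal peak and overlapped with them at the start.

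The Birc3 peak at chr9:7872585-7873284, centred 236 bp after the listed start, averaged 60.9 ± 30.8 scaled CPM in confined and 101 ± 17.6 in unconfined cells (SD, n = 3 each; log2 fold change -0.59, SE 0.43, adjusted p = 0.417 in edgeR). Its groups overlapped at the scaling of peaks, whereas the same counts did not overlap at the scaling of gene-linked sums.

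Peaks being of equal width, their levels can be ordered. In unconfined cells the Ccl3 downstream peak and the Relb peak came first, at 305 ± 68.7 and 282 ± 27.9 scaled CPM, within each other's SD. The Ccl3 peak stood above the Relb peak in unconfined library 1 (376 against 282) and below it in unconfined library 2 (239 against 254) and 3 (300.2 against 310.4). The Nfkb2 start peak followed at 147 ± 7.55, apart from both neighbours in the order. From Nfkbia at 105 ± 13.7 down to the Ccl3 start peak at 61.8 ± 23.0, the mean ± SD range of each peak overlapped that of the next. In confined cells these ranges overlapped between neighbours for all 11 peaks, from the Ccl3 start peak at 185 ± 97.3 to the Rel peak at 42.9 ± 12.2.

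The 34 member peaks below the filter held 0 to 19 counts in confined and 1 to 47 in unconfined libraries. Of these, 30 lay farther than 1 kb from an end or start. In the fit with no filter, 23 of the 30 had a positive and 7 a negative log2 fold change (median 0.73, range -1.24 to 1.39, lowest edgeR adjusted p = 0.0594). Of all 19024 linked peaks farther than 1 kb and below the filter, 74.0% were positive in that fit, with a median of 0.41.

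The wider pathway was read through 72 further genes of NF-kB signalling, 68 of them with a linked peak. They have 54 tested peaks, of which 5 were called higher and 1 lower in confined cells, where 5.79% and 2.42% of all tested peaks were. The higher ones lay at the TNF receptor genes Tnfrsf1a (log2 fold change 1.37, edgeR adjusted p = 0.0167) and Tnfrsf1b (2.00, 0.0115), at the kinase gene Map3k8 (1.25, 0.0163) and, as a pair, at the kinase gene Tbk1 (1.91, 0.0142, and 1.77, 0.0303). The lower one lay 18 bp from an end of Irak4, a kinase of Toll-like receptor signalling (-1.32, edgeR adjusted p = 0.0369). The Tnfrsf1b peak held 13, 9 and 6 counts in confined and 9, 16 and 14 in unconfined libraries. This peak and both Tbk1 peaks entered the test only through confined cells, since they reached the CPM of the filter in the 3 confined libraries and in 0 of the unconfined ones. The Irak4 peak held 12, 1 and 1 counts in confined and 28, 77 and 89 in unconfined libraries. No call of the 6 was kept with confined library 1 alone or without confined library 2, 1 was kept without confined library 3 and 2 without unconfined library 3, and the Map3k8 call was lost with the replicate block (edgeR adjusted p = 0.0679). With no filter 1 was kept, Irak4, and the 5 higher values were 1.13 at Tnfrsf1b, 1.01 and 0.87 at Tbk1, 0.50 at Tnfrsf1a and 0.36 at Map3k8. DESeq2 and scaling by total counts each kept 4. Without unconfined library 1, 4 were kept.

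On linked counts, 59 of the 72 genes were tested, 9 were higher and 5 lower, where 9.59% and 11.1% of all tested genes were. Their median log2 fold change was 0.25, against 0.021 over all tested genes. The classes that follow are small and are given as counts. Of 5 tested ligand genes 3 were higher: Tnf (log2 fold change 1.36, edgeR adjusted p = 0.0101), Il1b (0.81, 0.0350) and Tnfsf11 (1.15, 0.0115). Of 7 tested receptor genes Il1r1 (0.78, edgeR adjusted p = 0.0446) and Tlr2 (1.02, 0.0303) were higher. Of 16 tested target genes Cd83 (0.77), Cflar (0.70) and the chemokine gene Cxcl1 (1.53) were higher and Sod2 (-1.20) lower. Of 9 tested kinase genes Ikbke (1.09) was higher and Tab1 (-1.43), which encodes a kinase partner, lower. Of 12 tested adaptor genes Birc2 (-1.29) was lower. Of 10 tested inhibitor genes Nfkbib (-1.60) and Tnip2 (-1.13) were lower. Cxcl1 met the gene filter in confined libraries only, with 16, 12 and 8 counts in confined and 4, 25 and 21 in unconfined libraries. Tab1 met it in unconfined libraries only, with 8, 2 and 3 counts in confined and 23, 39 and 68 in unconfined libraries. Of these 14 calls, 2 were kept with confined library 1 alone, 9 with the replicate block, 3 without confined library 2, 8 without confined library 3, 5 without unconfined library 1 and 2 without unconfined library 3. DESeq2 kept 4, no filter 8, links within 20 kb 7 of the 13 genes tested there, and peaks within 1 kb of a gene end 0 of 5. With the block the calls lost were Tnip2, Il1r1, Cd83, Cflar and Sod2 (edgeR adjusted p = 0.0670, 0.0648, 0.0503, 0.0611 and 0.0722).

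Averaged over the 10 members, log2(CPM + 1) of linked counts was 6.67, 6.84 and 6.37 in confined and 7.04, 6.98 and 6.99 in unconfined libraries. Among 10018 other tested genes, Ccdc171 (Pearson r = 0.999), Nadsyn1 (0.997) and Fdft1 (0.996) had the most similar profile over the 6 libraries, given here as a description.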

How the data were processed

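ATAC-seq was measured in 3 confined and 3 unconfined LT-HSC samples. The authors deposited raw counts per peak, with mm10 coordinates of 42632 peaks of 700 bp. The submitters' processing notes name featureCounts, mm10, R 4.2.0 and SAMtools 1.14. What each did, and how reads were aligned, deduplicated, shifted for the transposase and called into peaks, is not given in the sources used here. Duplicates or peaks called mainly in deeper libraries would change the counts. The coordinates are the authors' other values, used as deposited.

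Peaks were linked to the protein-coding gene (RefSeq, GRCm38.p6) with the nearest end within 50 kb, 34687 peaks in all. Counts per peak, and counts summed per gene, were tested in edgeR 4.0.16 under R 4.3.3 (filterByExpr, TMM, glmQLFit, glmQLFTest, Benjamini-Hochberg over all tested features), with group and no covariate. The filter kept 9084 peaks and 10028 of 14570 genes. SE is the log2 fold change divided by the root of the F statistic. TMM-scaled CPM of peaks and of genes use their own scaling and cannot be compared with each other. Both are rates of counts in tested features. Tested peaks held 23.6 to 34.8% of counts in confined and 43.2 to 51.2% in unconfined libraries. The same share of all counts thus gives a higher scaled peak value in confined libraries. Intervals used SciPy 1.17.1 under Python 3.11.15. Alternatives were other scalings, no filter, DESeq2 1.42.0, a replicate block, libraries left out with the tested features kept, and other links. On simulated counts the fit called 22 of 100 peaks changed 2-fold and 74 of 100 changed 4-fold, and 42 and 87 of 100 genes. In that setting most 2-fold changes of single peaks were missed. Both groups were drawn there from the same profile, pooled over all libraries, apart from the changed features. Confined libraries 2 and 3 did not resemble the unconfined ones in the real counts, so that these rates may not hold for them.

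The labels give same-numbered samples of the groups a shared experimental batch, which is where the pairing comes from. Deviations from group means correlated at r = 0.0437, 0.0597 and -0.0470 for pairs 1, 2 and 3, so the pairing was not visible in the counts. Each batch holds 1 library of each group. The named peaks are all member peaks past the filter and, for members without one, the strongest at a gene end. The Rela start peak and the Ccl4 peak inside Ccl3 fall outside this rule and were named after their values were seen. The members, lists and tests were chosen with earlier results of these data known. Shares near listed starts were added after seeing the gene models.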

Additional observations from a re-analysis of the deposited data

How the results depend on the processing

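Counts of calls depended on single libraries. With confined library 1 alone against the 3 unconfined libraries, in a fit that takes its spread from the unconfined libraries alone, 15 peaks were higher and 22 lower, against 526 and 220 with all libraries, and 58 genes were higher and 164 lower, against 962 and 1113. Without confined library 1, 2 or 3 there were 618, 66 and 289 higher and 383, 7 and 162 lower peaks, and without unconfined library 1, 2 or 3 there were 493, 471 and 297 higher and 115, 96 and 42 lower. The same omissions gave 1314, 195 and 558, and then 331, 866 and 109, higher genes, and 1502, 319 and 793, and then 590, 990 and 277, lower genes. Member calls then ranged over 0 to 1 higher and 0 to 1 lower peaks and over 0 to 2 higher and 1 to 3 lower genes. DESeq2 gave 77 lower peaks, 339 higher and 472 lower genes, 0 higher member peaks and 1 lower member gene. No filter gave 1821 lower peaks, and 0 higher and 3 lower member peaks. Total counts gave 348 higher and 2286 lower peaks, and 0 higher and 4 lower member peaks. With links within 20 kb 0 member genes were higher. Over peaks within 1 kb of a gene end 2 of the 7 members tested there were higher and 0 lower, among 323 higher and 127 lower genes. Nfkb1, Nfkb2 and Rel were not tested in it. That last fit counts fewer peaks, tests fewer genes and scales libraries anew. With the replicate block 74 peaks were lower and the member calls fell to 2 lower genes, Rel being lost; it changed no other call on a member.

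Directions turned at the Nfkb2 peak 4679 bp from the gene end (-0.24 with confined library 1 alone, -0.45 with no filter, -0.27 with total counts), the Rela peak at 759 bp (-0.53 with no filter, -0.32 with total counts, and -0.52 to 0.49 as single libraries were left out, the lowest without confined library 1), the Tnfaip3 peaks at 59 bp (-0.26 to 0.085 as single libraries were left out, the highest without unconfined library 3) and 47134 bp (-0.33 with no filter, -0.12 with total counts), and the linked counts of Nfkb2 (-0.23 with confined library 1 alone, -0.033 with no filter, -0.039 to 0.24 as single libraries were left out, below 0 without confined library 2 or 3). Over peaks within 1 kb of an end they turned for Rela (0.065), Nfkbia (-0.19), Tnfaip3 (-0.022) and Ccl3 (1.57). That fit counts fewer peaks and scales libraries anew. Rela has the same counts in it as in the main fit, so that only the scaling and the set of tested genes differ there. The cause of the other turns was not tested. Of 527 values under alternatives, for 41 single results, 352 kept direction and side of the threshold, 151 lost the call, 7 gained one and 17 turned. Only results called in the main fit could lose a call. The 352 also hold values of results that were not called there, so that they do not measure how stable the calls were. Member peaks held at most 23 counts in a confined library, which limits every peak result.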
